A study of Arabidopsis thaliana with 4 samples.

Results

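The genes described here are 26 Arabidopsis genes of the cytoskeleton and of the IQ-domain family, each read by 1 probe set. They were chosen by a naming rule, set with earlier results of these data known, among 13356 genes whose probe sets the platform annotation gives to exactly 1 gene. The naming rule asked for the IQD, ADF, PRF, VLN, FH, WDL and ACT series, and for symbols that begin with MAP65, MAP70, NET1 to NET4, KIN, XI- or ARPC, with tubulins left out. It found 11 IQD genes, 10 NET genes, the actins ACT11 and ACT12, the kinesins KINESIN-12B and KINESIN-13A, and the myosin XI-I. No named probe set carried a symbol of the ADF, profilin, villin, formin, WDL, MAP65, MAP70 or ARPC series, so none is among the 26. The rule did not look for genes of these families under other symbols. CRK, a subunit of the complex to which the ARPC symbols refer, was read from the list of actin nucleation and turnover. All 26 are proteins of the kind the label describes, and none of the cold-induced or SnRK1 kinase genes that carry a KIN symbol was among them.

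RNA came from whole plants, 10 days old, of the Wassilewskija accession (the labels' ws-2, below WS) and of a gpa1 line in the same accession. Each was sampled without treatment (control) and after abscisic acid (ABA), the hormone of drought and seed dormancy, given at 100 µM for 3 h. Each of the 4 groups is 1 Affymetrix ATH1 array hybridised with RNA from a pool of 10 plants, so no group has a replicate. The medium was that of Murashige and Skoog, set with agar, and plants were kept at 21 °C in 16 h of light and 8 h of dark, and the line came from another seed stock than WS. The labels record for gpa1 a T-DNA insertion at the locus At3g26300, which is not the locus usually given for GPA1, the G protein alpha subunit. The probe set of GPA1 is unnamed here, so the disrupted gene was not checked.

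The arrays carried the marks of the treatment and of the organs of a whole plant. Of 5 tested ABA markers 4 rose, among them COR47, a dehydrin, at 844.4 and 831.0 in the controls and 4507.9 and 5941.4 with ABA (WS, then gpa1). RCA, the Rubisco activase of leaves, read 4082.4 to 5487.2, and the root-hair expansins EXPA7 and EXPA18 read 42.4 to 143.0. Several control readings did not follow the treatment. The 25S ribosomal RNA probe set read 2235.9 without and 958.7 with ABA in WS, against 1549.8 and 1800.2 in gpa1, and 9 spike-in probe sets had geometric means of 383, 217, 253 and 366. For the actin control, 3-prime over 5-prime intensity was 6.09, 8.55, 8.71 and 6.76 in the same order. For a second actin control it was 2.30, 3.01, 2.42 and 2.39, and for GAPDH 1.93, 2.14, 1.89 and 1.96. The 25S and spike-in readings were higher, and both actin ratios lower, on the untreated WS and treated gpa1 arrays than on the other pair, and these are the pairs that a difference between the ABA responses contrasts. The gpa1 minus WS difference of the ABA response was -0.86 for the first actin ratio and -0.41 for the second on the log2 scale, and the GAPDH ratio, at -0.09, did not divide the arrays in that way.

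IQD proteins carry a plant-specific domain of IQ motifs that binds calmodulin, the calcium sensor, and many of them lie on microtubules, where they are thought to act as scaffolds. NET (Networked) proteins are plant-specific actin-binding proteins that tie actin filaments to membranes, with different members at different membranes. Kinesins move along or take apart microtubules, and class XI myosins carry organelles along actin and drive cytoplasmic streaming. In guard cells and growing cells, rearrangement of actin and microtubules is a known part of the response to ABA.

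Values are linear intensities as deposited, 1 for each array. For changes, intensities under the 30th percentile of all arrays, 19.2, were raised to that floor before log2 was taken, and the test took in probe sets whose mean log2 intensity passed the 40th percentile. Of the 26 genes, 16 were bright enough to be tested. The averaged change compares both ABA arrays with both control arrays in limma, with p-values adjusted by Benjamini-Hochberg over 13647 probe sets and a call at 0.05. The 2 genotypes stand in for replicates there (n = 2), and the error is pooled over probe sets of like intensity. The SE and p therefore rest mostly on other probe sets and do not measure how well the 2 genotypes agree for a gene. A change within 1 genotype compares 1 array with 1 array and has no replicate check. In whole plants, fewer cells of a type and less RNA per cell cannot be told apart.

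With ABA, 7 of the 16 tested genes fell and 2 rose. Those that fell were IQD19, IQD22, IQD26, IQD28, IQD31, NET1A and ACT11, and those that rose were NET4B and NET1D. Over all tested probe sets limma called 42.7%, with 25.7% lower and 17.1% higher, against 43.8% lower and 12.5% higher of these genes. The median averaged change was -0.38 on the log2 scale over the 16 genes and -0.16 over all tested probe sets. Both ABA arrays lay below both control arrays for 9 of the 16 genes and above them for 4. The same held for 44.1% and 24.3% of all tested probe sets. With treatment fitted alone, 7 of the 9 calls were made on all 4 arrays and between 0 and 2 with 1 array left out. IQD31 and NET4B were called without gpa1 control, IQD19 was called without gpa1 ABA, and no gene was called without WS control or without WS ABA.

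**Figure D1:**
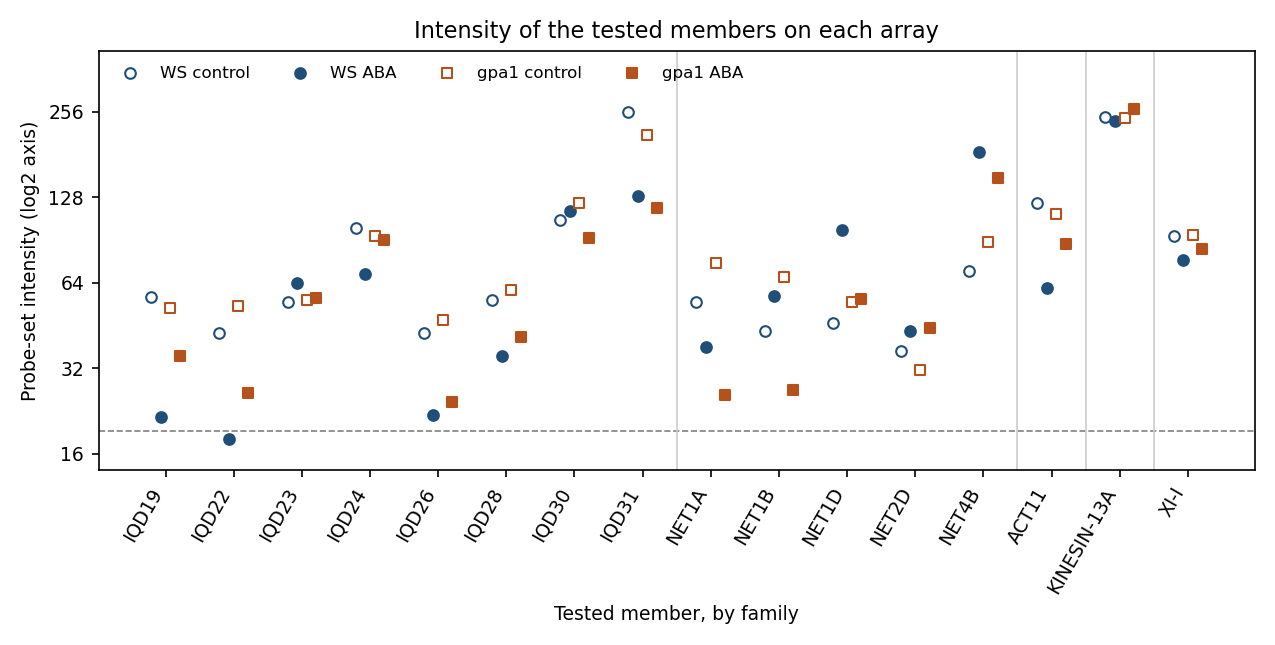
Probe-set intensity (log2 axis) of the 16 tested genes, 1 point for each array (circles WS, squares gpa1; open control, filled ABA), with the floor of 19.2 as a dashed line and families separated by vertical lines. The filled points of IQD19, IQD22, IQD26, IQD28 and IQD31 lie below the open ones, those of NET4B above them, and the lowest point of NET1A and NET1B is gpa1 ABA.

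The IQD family gave most of the falls. Of 8 tested members 5 fell and none rose, 62.5% lower against the 25.7% of all tested probe sets, and the family's median averaged change was -0.76. IQD31 was the brightest. Its intensity was 255.7 in untreated and 129.4 in treated WS, and 212.4 in untreated and 117.4 in treated gpa1. Both ABA arrays were thus well below both controls, 1.98-fold lower for WS and 1.81-fold for gpa1. The averaged change of IQD31 was -0.92 ± 0.16 (limma SE pooled over probe sets, n = 2 genotypes), with a limma adjusted p of 1.65e-07.

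IQD22 was dimmer and also lower with ABA in both genotypes. It read 42.5 in WS control and 52.9 in gpa1 control, then 18.0 in WS ABA, which is under the floor, and 26.1 in gpa1 ABA. With ABA it was at least 2.21-fold lower in WS and 2.03-fold in gpa1, and the averaged change was -1.08 ± 0.26, with a limma adjusted p of 3.12e-04. IQD22 was the only one of the 16 genes with a change of at least 2-fold in both genotypes, and 3.8% of all tested probe sets were lower and 6.49% higher by that much in both. IQD26 was lower by about the same factor in the 2 genotypes, going from 42.6 to 21.8 in WS and from 47.3 to 24.3 in gpa1. Its averaged change was -0.96 ± 0.27, with a limma adjusted p of 0.00146. The ABA arrays of IQD22 and IQD26 lay close to the floor, and neither passed the test once the floor was raised to the 45th percentile (adjusted p of 0.129 and 0.248).

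IQD19 was lower with ABA by a larger factor in WS than in gpa1. Its intensity was 56.8 without and 21.6 with ABA in WS, against 52.0 and 35.2 in gpa1, so the controls were close and the ABA arrays were apart. The factors were 2.63-fold for WS and 1.48-fold for gpa1, and the difference between them was not tested. The averaged change was -0.98 ± 0.26, with a limma adjusted p of 9.10e-04, and -0.63 without WS ABA (adjusted p of 0.117). IQD28 had the least fall of the 5, from 55.6 to 35.4 in WS and from 60.3 to 41.1 in gpa1. Its averaged change was -0.60 ± 0.25 and its limma adjusted p, 0.0392, became 0.121 under quantile normalization and 0.0745 under median centring.

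The other 3 tested IQD genes did not pass the test. IQD24 read 100.1 and 68.4 in WS and 93.8 and 90.7 in gpa1 (control, then ABA), with an averaged change of -0.30 and a limma adjusted p of 0.235. IQD30 read 106.1 and 114.7 in WS and 122.3 and 91.9 in gpa1. It was higher with ABA in WS and lower in gpa1, and the averaged change was -0.15 (adjusted p of 0.543). IQD23 read 54.8 and 63.9 in WS and 55.6 and 56.6 in gpa1, an averaged change of 0.12 with an adjusted p of 0.709.

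The remaining 3 IQD genes were too dim to be tested. IQD16 reached 24.6 in WS control and read 13.3, 9.6 and 7.0 in WS ABA, gpa1 control and gpa1 ABA, all under the floor. IQD18 read 1.4 to 11.9 and IQD27 7.6 to 14.2, under the floor on every array. No order can be given among such values.

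A further 4 genes of the family carry symbols in lower case in the annotation and are not counted among the 26. They were set beside the family after their values had been seen. Of these, iqd21 fell, from 124.2 to 40.0 in WS and from 118.5 to 44.3 in gpa1, or 3.10-fold and 2.67-fold. Its averaged change was -1.53 ± 0.22, with a limma adjusted p of 8.12e-10, further from 0 than that of any of the 16 genes. By contrast iqd32 read 104.0 to 127.3 with an averaged change of -0.16 (adjusted p of 0.509). The last 2 were too dim to be tested, iqd15 at no more than 28.3 and iqd33 at 1.4 to 3.3. With these genes, 6 of 10 tested IQD genes fell and none rose, and the family's median was -0.76.

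The NET family moved in both directions. Of 5 tested members 2 rose and 1 fell, beside 17.1% higher and 25.7% lower over all tested probe sets, and the median averaged change was 0.36. NET4B, a member of the group found at the vacuole membrane, was higher with ABA in both genotypes. Its intensity was 70.6 in untreated and 184.2 in treated WS, and 88.8 in untreated and 149.8 in treated gpa1. The ABA arrays stood above both controls, 2.61-fold for WS and 1.69-fold for gpa1. The averaged change of NET4B was 1.07 ± 0.18, with a limma adjusted p of 1.62e-07.

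NET2D, of a group known from pollen, read 36.8 and 43.1 in WS and 31.6 and 44.2 in gpa1 (control, then ABA). Both ABA values lay above both controls, but the averaged change of 0.36 ± 0.26 did not pass the test (adjusted p of 0.269). Most other NET genes of the later groups were dark in these plants. NET3A, a member associated with the nuclear membrane, read 20.7 to 24.1 and was not tested. NET3B and NET3C, which link actin to the endoplasmic reticulum and to its contacts with the plasma membrane, read 0.5 to 3.7 and 1.4 to 4.0. NET2C, also of the pollen group, read 1.5 to 2.0.

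The NET1 group, whose member NET1A is found along actin at the plasma membrane and plasmodesmata, held the 3 largest differences between the responses of the 2 genotypes among the 16 genes. NET1A read 54.5 without and 38.1 with ABA in WS, against 75.1 and 25.7 in gpa1. It was the highest of the 4 in gpa1 control and the lowest in gpa1 ABA, so that it was 1.43-fold lower with ABA for WS and 2.92-fold for gpa1. The averaged change was -1.03 ± 0.25, with a limma adjusted p of 3.29e-04.

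NET1D read 46.1 in untreated and 98.4 in treated WS, and 54.9 in untreated and 55.9 in treated gpa1. One array, WS ABA, stood above the other 3, so WS was 2.13-fold higher with ABA and gpa1 1.02-fold. The averaged change of 0.56 ± 0.23 passed the test narrowly, with a limma adjusted p of 0.0436, and the p was 0.0809 without the intensity trend and 0.181 with treatment fitted alone. Fitted in that way it was 0.15 without WS ABA and 0.97 without gpa1 ABA, neither past the test. NET1B read 43.3 without and 57.2 with ABA in WS, against 66.8 and 26.7 in gpa1. It was 1.32-fold higher with ABA in WS and 2.50-fold lower with ABA in gpa1, and its averaged change of -0.46 ± 0.26 did not pass (adjusted p of 0.141). NET1C, the fourth of the group, read 7.3 to 13.6, under the floor on every array.

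**Figure D2:**
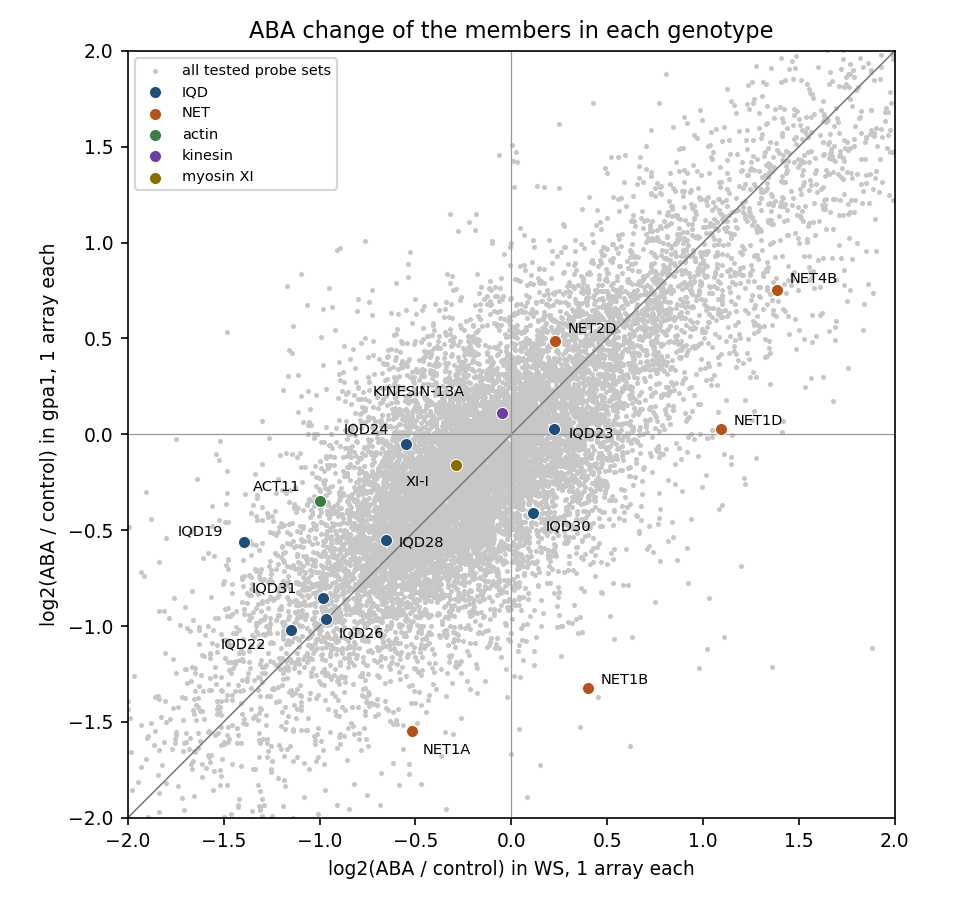
Log2 change with ABA in WS (horizontal) and in gpa1 (vertical) for the 16 tested genes, coloured by family, over all 13647 tested probe sets in grey (those beyond ±2 are outside the frame), with the line of equal change. IQD22, IQD26, IQD28 and IQD31 lie near the line at lower left, NET4B lies at upper right, and NET1A, NET1B and NET1D lie below the line by 1.03, 1.72 and 1.07.

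Expressed as the gpa1 response minus the WS response, NET1A, NET1B and NET1D had values of -1.03, -1.72 and -1.07 on the log2 scale. All 3 tested NET1 genes were thus at -1 or less, NET1A and NET1D narrowly. Of all tested probe sets, which include brighter ones, 1.68% were at -1 or less. No other tested gene of the 16 reached -1 or 1. The difference has no test with 1 array for each group. NET1B was picked out with these data in view, for this same difference, so its value adds nothing to a comparison with that share. The largest value in the other direction was that of IQD19, 0.83, followed by 0.65 for ACT11 and 0.50 for IQD24.

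Control readings also differed in this contrast. The same difference was 1.44 for the 25S ribosomal RNA, 1.35 for the spike-in controls and 1.03 for the 5-prime actin control, against 0.16 and 0.17 for its middle and 3-prime probe sets. So did markers of cell types. EXPA7 and EXPA18, the 2 named genes of 15 on the root list, had 1.47 and 1.25, and their summed intensity was 223.3 in untreated and 101.9 in treated WS, and 129.6 in untreated and 150.6 in treated gpa1. For the 4 named genes of the cell division list the median difference was -0.26 and the summed intensities 345.0, 287.9, 367.3 and 264.0 in that order. The sums include SIM, an inhibitor of division, which read 113.3, 97.6, 132.3 and 65.4 and had a difference of -0.80. The Aurora kinases AUR1, AUR2 and AUR3 had 0.31, -0.31 and -0.22. For the 4 named leaf genes the median difference was 0.41. The part of these readings in the NET1 values was not tested.

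**Figure D3:**
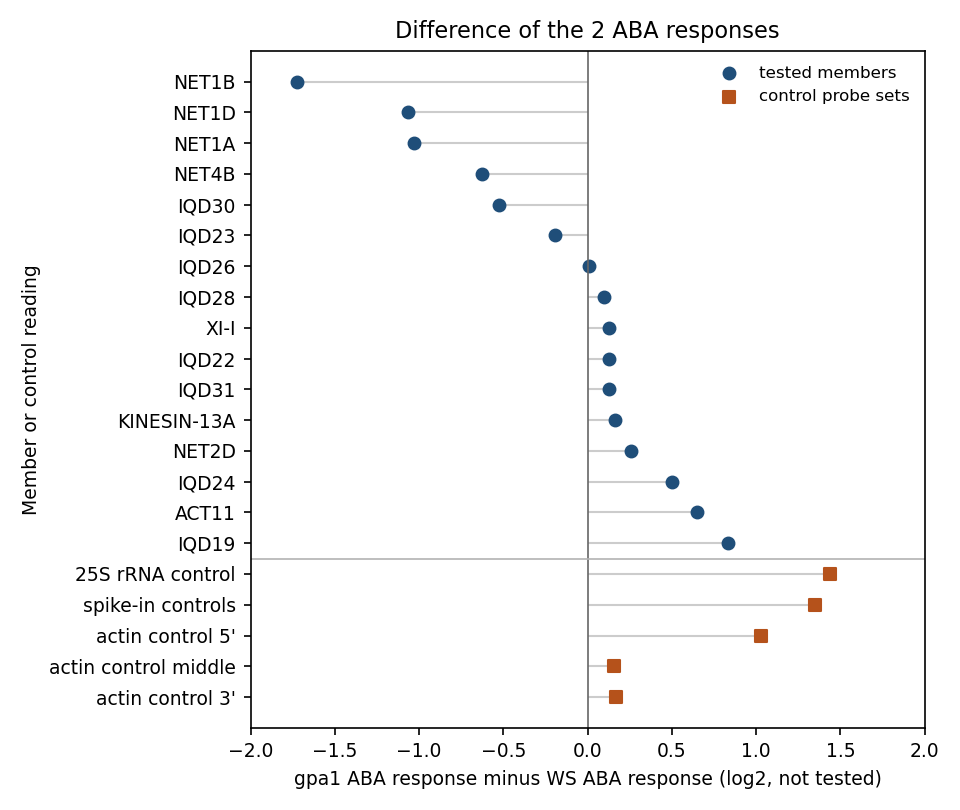
Difference between the ABA response in gpa1 and in WS (log2 scale, not tested) for the 16 tested genes in rising order (circles) and for control readings of the same arrays (squares). NET1B, NET1D and NET1A stand at -1.72, -1.07 and -1.03, and the 25S ribosomal RNA and spike-in controls at 1.44 and 1.35.

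By the order of genes in the RefSeq annotation of TAIR10.1, IQD19 and NET1B are direct neighbours on chromosome 4. Their responses did not run in parallel: IQD19 was lower with ABA in both genotypes, and NET1B was higher with ABA in WS and lower in gpa1. The annotated NET1A locus overlaps that of TSO1, a regulator of cell division in flowers, and the NET1B locus overlaps TCX2, a gene of the same CXC family. TSO1 read 87.8 without and 47.4 with ABA in WS, against 77.1 and 59.1 in gpa1, so its lowest array was WS ABA and not gpa1 ABA. Like NET1A, TSO1 fell with ABA, with an averaged change of -0.64 and a limma adjusted p of 0.0157. The gpa1 response minus WS response of TSO1 was 0.51, against -1.03 for NET1A. TCX2 was not analysed here, and where the NET1 probes lie relative to the overlaps was not determined. In the same annotation the loci of IQD22, IQD24 and IQD28 overlap those of RBL7, RBL3 and APK2A, and the loci of NET1D and NET4B each overlap 1 protein-coding gene without a symbol.

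Of the 3 tested actin and motor protein genes, ACT11 fell and the other two did not pass the test. ACT11, an actin of the reproductive class, read 122.5 in untreated and 61.3 in treated WS, and 112.0 in untreated and 87.9 in treated gpa1. Both ABA arrays were below both controls, 2.00-fold lower for WS and 1.27-fold for gpa1. The averaged change was -0.67 ± 0.20, with a limma adjusted p of 0.00305, and -0.41 without WS ABA (adjusted p of 0.189). ACT12, a pollen actin, read 1.6 to 5.7, under the floor on every array.

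XI-I, a myosin known for moving the nucleus, read 93.7 and 76.7 in WS and 93.9 and 83.9 in gpa1 (control, then ABA). Its averaged change of -0.23 ± 0.20 did not pass the test (adjusted p of 0.385). KINESIN-13A, which takes part in trichome shape and in the pits of wood vessels, was among the brightest genes and the least variable of the 16, at 237.1 to 262.3 on the 4 arrays. Its averaged change was 0.03 ± 0.14 (adjusted p of 0.882). KINESIN-12B, a motor of the phragmoplast in dividing cells, read 21.8 in WS control and 9.1 to 15.1 on the other arrays, and was not tested.

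None of the 16 tested genes differed between gpa1 and WS averaged over treatments in the limma test, and none had an unadjusted p under 0.05. Over all tested probe sets 2.9% were called. The averaged differences ran from -0.28 for NET1D to 0.38 for IQD22, and the adjusted p-values from 0.695 to 0.996. Within treatments the sizes were not all small. Without ABA, NET1B read 66.8 in gpa1 and 43.3 in WS, and with ABA 26.7 in gpa1 and 57.2 in WS, so that the averaged genotype difference was -0.24.

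**Figure D4:**
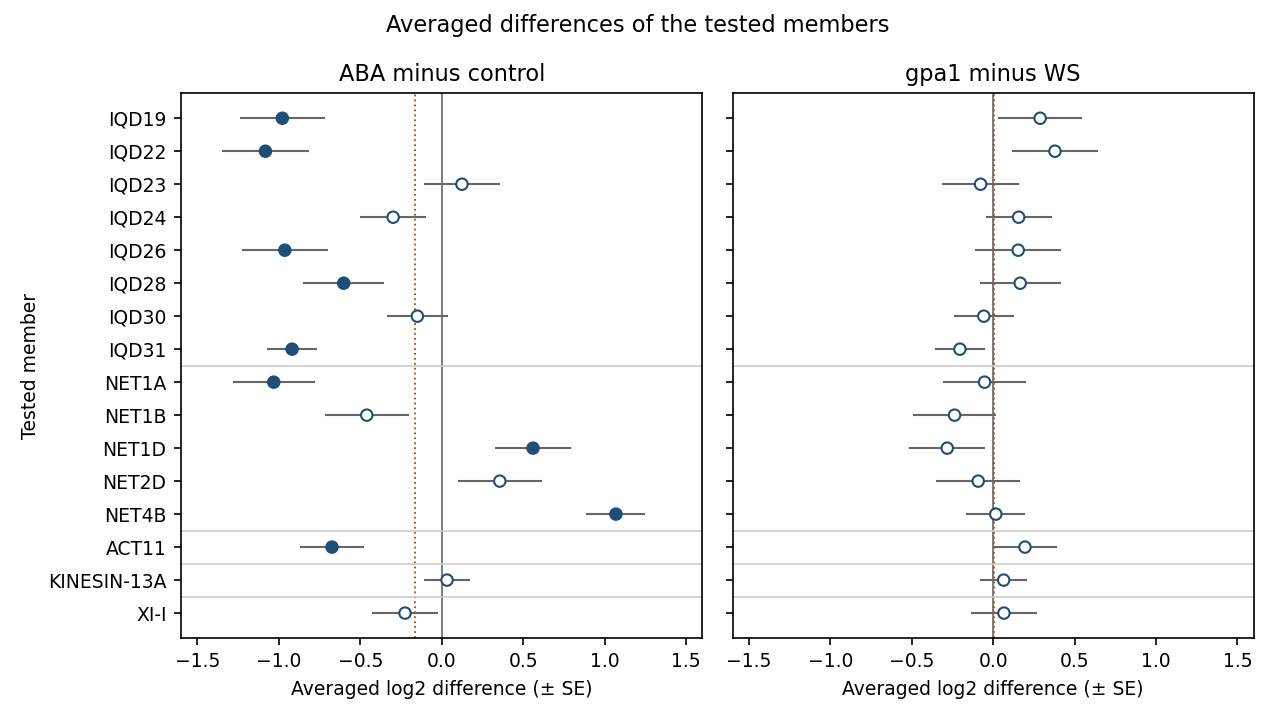
Averaged log2 difference ± SE from limma for the 16 tested genes, ABA minus control on the left and gpa1 minus WS on the right, with filled points for an adjusted p under 0.05 and a dotted line at the median of all tested probe sets. On the left 7 genes are filled below 0 and NET1D and NET4B above 0, and on the right no point is filled.

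Other genes of the cytoskeleton were read from lists drawn up by symbol, of which few had a named probe set. On the microtubule list 6 of 60 genes were named and 5 tested, and 1 rose and 1 fell, with a median of -0.27. Both belong to the SPIRAL1 family, small proteins that bind microtubules. SP1L2 read 24.5 and 71.8 in WS and 34.1 and 64.9 in gpa1 (control, then ABA), an averaged change of 1.24 with a limma adjusted p of 1.25e-05. SP1L4 read 104.9 and 65.0 in WS and 82.9 and 53.0 in gpa1, an averaged change of -0.67 with an adjusted p of 0.00748. SPR1, SP1L3 and TON1B, a protein that recruits others to the cortical array, did not pass, at -0.27, -0.18 and -0.56.

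On the list of actin nucleation and turnover 7 of 40 genes were named and tested, and 4 fell and none rose, with a median of -0.50, beside 25.7% lower over all tested probe sets. WLIM1, which bundles actin filaments, read 342.2 and 201.8 in WS and 383.2 and 291.5 in gpa1 (control, then ABA), an averaged change of -0.58 with a limma adjusted p of 3.30e-04. SPK1, which acts upstream of actin nucleation, and PIR121, a subunit of the SCAR/WAVE complex, had averaged changes of -0.68 and -0.50 with adjusted p-values of 0.00536 and 0.0419. The other gene that fell was THE1, a receptor kinase of the cell wall that was placed on the list in error, and without it 3 of 6 fell and the median was -0.37. BRK1 and CRK, subunits of SCAR/WAVE and of the ARP2/3 complex, had -0.02 and 0.33 and did not pass. AN, also counted among the 6, had -0.25 and did not pass, and its place on an actin list was not checked.

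The cell division list had 4 tested genes. AUR1, AUR2 and AUR3 did not pass, at -0.31, -0.21 and -0.17 on average. SIM fell with -0.62 and a limma adjusted p of 0.00582. VIIIB, a class VIII myosin, was too dim to be tested at 1.8 to 15.9. Of the root-hair pair EXPA18 fell, with -0.64 and a limma adjusted p of 0.00759. Of the 4 tested leaf genes the dimmest, LHCB4.3, rose, with 0.44 and a limma adjusted p of 0.0238. LHCB4.1, LHCB4.2 and RCA had averaged changes below 0, at -0.40, -0.38 and -0.09, and did not pass. The median of the leaf list was -0.23. No gene of the calmodulin, pollen or NET3C partner lists had a named probe set.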

How the data were processed

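Each of 4 Affymetrix ATH1 arrays was deposited as linear intensities of its probe sets, with a 2%-trimmed mean of 100.0 on each array. The program that summarised probes to these values: not given in the sources used here. Of 22810 probe sets, 64 controls were set aside. Genes were named through the platform annotation, updated by gene identifier through RefSeq (TAIR10.1): 13513 probe sets had 1 gene, 503 several, and 8730 were not listed and are unnamed here.

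Differences were fitted with limma 3.58.1 in R 4.3.3 as treatment plus genotype, with 1 residual degree of freedom and eBayes with an intensity trend (a median of 171 prior degrees of freedom), and tests had both sides. The pooled spread therefore outweighs a probe set's own. The p-values rest mostly on the spread of other probe sets over these arrays, and no spread between replicates could be measured. The fit was tested on simulated data of 13647 probe sets, with 50 changed at each size. It recovered 100% of log2 changes of -2 and of 2, 92% of those of -1 and 82% of those of 1, with 4 false calls. Far fewer probe sets were changed there than were called here, so the simulation cannot show how the p-values behave on these arrays. Samples were grouped by title.

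The genes and lists were chosen with earlier results of these data known. Genes were named by these rules: NET1B, up to 4 called genes for each family and direction, the brightest of each family, response differences of at least 1, and up to 3 called genes for each list and direction. The remaining tested genes were added after their values were seen. The result of 1 list is not reported here. Alternatives were other scalings, floors, filters, variance models and leaving out each array. The number of arrays limits the precision.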

Additional observations from a re-analysis of the deposited data

Results flagged for a closer look

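In 3 tested genes the single ABA comparison of WS and that of gpa1 went in opposite directions, and none of these differences was tested, since each group has 1 array. Taken as gpa1 minus WS on the log2 scale, the responses differed by -1.72 for NET1B, -0.52 for IQD30 and 0.16 for KINESIN-13A.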

How the results depend on the processing

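Of the 9 ABA calls among the tested genes (7 lower, 2 higher), 8 were made under quantile normalization and under median centring, which lost IQD28, and 7 after raising the floor to the 45th percentile, which lost IQD22 and IQD26. Without the trend 8 were made and with treatment fitted alone 7, each with 1 gene higher: NET1D missed the threshold in both, and IQD28 in the latter (adjusted p of 0.0614). With the filter at the 60th percentile 7 genes were tested and 3 called, 1 higher and 2 lower. Without a filter limma called 0 of the 26 genes and 0 probe sets, in either direction and for either effect; at an unadjusted p under 0.05 it had 5054 probe sets and 3 of these genes for ABA and 1186 probe sets and 1 gene for genotype. The prior degrees of freedom were then 0.85, and the cause was not tested. The genotype effect was called for 396 probe sets in the main model, for 108 without the trend and for 0 with genotype fitted alone (120 at an unadjusted p under 0.05), and the cause was not tested. With 1 array left out and the effect fitted alone, 0 to 2 of the genes were called (0 to 1 higher, 0 to 1 lower) and 1167 to 1523 probe sets (732 to 1001 higher, 422 to 522 lower) in place of 7 genes and 4221 probe sets with treatment fitted alone on all 4 arrays and 5834 probe sets in the main model, with 0 for genotype (68 to 95 unadjusted). In that setting the spread rests on 3 arrays. At least 1.5-fold change in both genotypes held for 4 genes (IQD22, IQD26, IQD31 and NET4B), against 1 at 2-fold. Averaged changes that turned sign had not passed the test: KINESIN-13A had -0.02 under quantile normalization, and leaving out 1 array gave -0.04 to 0.1 for KINESIN-13A, -0.31 to 0.01 for IQD30 and -1.01 to 0.09 for NET1B, each turned without gpa1 ABA. The NET1B response difference was -1.72 to -1.25 under other scalings, floors and filters. A robust eBayes fit and the 4 lower-case symbols, chosen after seeing the data, gave 9 and 10 calls. The main model already compares ABA with control within each genotype. No paired analysis was possible because the labels give no replicate numbers by which arrays could be paired further. Arrays read dim genes poorly: 10 of the 26 were too dim to be tested.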
